A study of Mus musculus with 24 samples.

Results

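Genes of glucose uptake, glycolysis and pyruvate use were described in the tibialis anterior, a fast muscle of the lower leg, of mice aged 6 weeks on a mixed C57BL6/J;129S1/SvImJ background. The members were fixed by name, in a list running from the glucose transporter SLC2A1 through PFKM and PKM to the mitochondrial pyruvate carrier MPC2. The list held 50 symbols for 49 genes, since PKM and PKM2 are the same gene. Of these genes 41 had a named probe, 45 probes in all, among 17742 named genes on the array. For 8 genes no probe was named in the annotation used here: Gapdh, Pgk1, Eno1, Eno2, Eno3, Ldha, Ldhb and Mpc1. The controls, 4 animals, carried Myf6 cre/+; Hira flox/+, and the 4 Hira CKO (conditional knockout) animals carried Myf6 cre/+; Hira flox/-. The driver and a floxed allele were thus common to both groups, and the allele beside the floxed one was intact in controls and null in Hira CKO in every cell, with or without cre. Myf6 is expressed in muscle fibres, so recombination is not expected in the other cells of the dissected muscle. Sex was not given in the labels. Each animal was hybridised on 3 arrays, which are repeats of that animal, and the animal was the replicate.

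Glycolysis splits glucose into pyruvate in the cytosol and yields ATP without oxygen. Glucose enters muscle through transporters of the Slc2a family, is trapped by hexokinase, and is committed to glycolysis at phosphofructokinase. Pyruvate is either reduced to lactate, which leaves through monocarboxylate transporters, or enters the mitochondrion and is oxidised by pyruvate dehydrogenase, an enzyme that kinases switch off and phosphatases switch on. Fast fibres rely on glycolysis far more than slow fibres, and most steps have a muscle isoform and others that prevail elsewhere.

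Values are linear intensities, normalised by the depositors, with arrays of an animal averaged. A change is the difference of log2(intensity + 16), Hira CKO minus control, and was called at a limma adjusted p under 0.05 over all 26423 probes. Because of the added 16, changes of dim probes are understated. Each gene was read at its brightest probe unless another is named. Probes were ranked by intensity, but a difference in level between 2 probes is not read as a difference in RNA abundance. The labels do not say whether animals of a group were littermates. A limma p-value sets the difference between the groups against the spread between these animals, moderated over all probes. The probe of the targeted gene, Hira, read 568, 472, 467 and 473 in control animals 1 to 4 and 614, 553, 524 and 543 in Hira CKO animals 1 to 4. It was not lower in Hira CKO, with a log2 difference of 0.17 (SE 0.087, limma adjusted p 0.193). Where this probe lies relative to the deleted part is not given in the sources used here, so it does not check the labels, on which every direction below rests.

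Of the called members, those of pyruvate control and lactate export changed most. Pdk1, a kinase that switches pyruvate dehydrogenase off, rose 2.17-fold, and Pdp1, a phosphatase that switches it on, rose 1.94-fold. Slc16a3, the lactate exporter of glycolytic fibres, was 1.71-fold lower in Hira CKO. Among glycolytic enzymes the falls were smaller and lay in a phosphoglucomutase, in the muscle phosphofructokinase Pfkm and in the pyruvate kinase Pkm. In all, 4 of 41 members were called higher and 5 lower, 22.0% together, against 21.2% of all 17742 genes (11.0% higher and 10.2% lower). The share of called members was thus near the background and is not a result about the group. Over all member probes the share was 20.0% (9 of 45), against 20.6% of all probes. The groups did not overlap for 13 of 41 members (31.7%), against 25.2% of all genes. The median change was −0.06 log2 over members and 0.01 over all genes, with 27 of 41 members on the negative side.

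**Figure D1:**
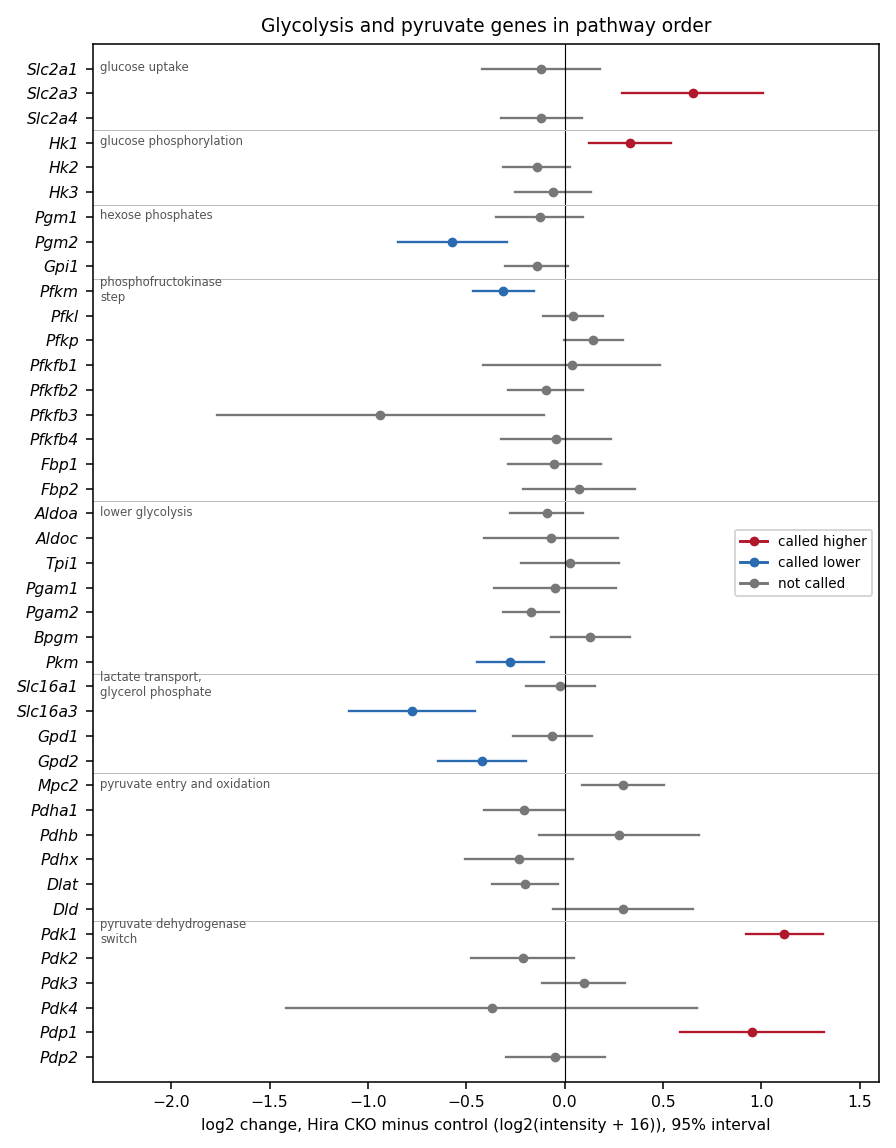
Change of each of the 41 members at its brightest probe, in pathway order from glucose uptake (top) to the pyruvate dehydrogenase switch (bottom). The x axis is the log2 change (Hira CKO minus control) of log2(intensity + 16), points are estimates, bars are 95% intervals from limma, and colour marks the call. The calls higher are Slc2a3, Hk1, Pdk1 and Pdp1, the calls lower are Pgm2, Pfkm, Pkm, Slc16a3 and Gpd2, and the widest intervals are those of Pdk4 and Pfkfb3.

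Sequence upstream of Slc16a3 and Pdk1 is shown because these members had the largest called fall and rise. Both genes are known targets of hypoxia-inducible factor, whose binding element has the core ACGTG. The 250 bases before a start site, from RefSeq on GRCm38.p6, were searched for ACGTG on both strands, where CACGT is the same motif on the opposite strand and the 2 overlap in CACGTG. Capitals mark the matches. The Slc16a3 window is chr11:120948817-120949066 and the Pdk1 window, for the first of its 2 start sites, is chr2:71872974-71873223, both on the plus strand.
Slc16a3: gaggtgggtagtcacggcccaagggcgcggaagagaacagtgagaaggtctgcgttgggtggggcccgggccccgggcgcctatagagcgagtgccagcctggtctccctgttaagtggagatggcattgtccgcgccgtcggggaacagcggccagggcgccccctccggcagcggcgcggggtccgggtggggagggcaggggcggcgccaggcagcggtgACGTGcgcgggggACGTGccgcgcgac
Pdk1: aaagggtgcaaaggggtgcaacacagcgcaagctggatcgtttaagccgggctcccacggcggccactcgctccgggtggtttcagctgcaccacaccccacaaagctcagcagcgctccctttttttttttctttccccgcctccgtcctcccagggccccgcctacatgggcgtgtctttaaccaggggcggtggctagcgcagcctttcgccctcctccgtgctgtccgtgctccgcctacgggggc
The Slc16a3 window held 2 matches, starting 27 and 14 bases before the start site, and neither Pdk1 window held one. Of 32851 windows of this length over all genes 16.6% held the motif, and of 54 windows of the 37 members with a RefSeq promoter 23 did (42.6%). Among the 14 windows of 7 called members 6 held it, and Slc2a3 and Pdp1 were not analysed here. A match describes the letters of the window only, and binding was not measured.

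Of the glucose transporters, Slc2a3 rose and Slc2a1 and Slc2a4 were not called. Slc2a3, a high-affinity transporter best known from neurons and blood cells, read 1398, 922, 1516 and 1421 in control animals 1 to 4 and 1955, 2195, 1688 and 2388 in Hira CKO animals 1 to 4. Every Hira CKO animal lay above every control, with the lowest control, animal 2, well below the other three. The change was 0.65 log2 (SE 0.161, limma adjusted p 0.0189), and it passed in 7 of 8 refits without 1 animal, failing without Hira CKO animal 2. Slc2a4, the transporter that insulin and contraction bring to the fibre surface, read 17716, 18359.7, 16517 and 18358 in controls and 15306, 15926, 19569.5 and 15185 in Hira CKO. Here 3 Hira CKO animals lay below all controls and animal 3 above them, and the change was −0.12 log2 (SE 0.093, limma adjusted p 0.401) with a 95% interval of −0.33 to 0.09. Slc2a1, the transporter of basal uptake, ranged from 1162 to 1581 in controls and from 990.1 to 1525 in Hira CKO, and its groups overlapped.

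Hexokinase traps glucose in the cell as glucose 6-phosphate. Hk2, the insulin-regulated hexokinase of muscle, read 87305, 82601, 78257 and 74908 in controls and 70882, 70384, 78266 and 72582 in Hira CKO. Hira CKO animal 3 lay among the controls, and the change, −0.14 log2 (SE 0.076, limma adjusted p 0.214), did not pass. Hk1, the hexokinase found in most tissues, read 1685, 1536, 1504 and 1582 in controls and 1999.5, 1985, 2296 and 1715 in Hira CKO at its brighter probe. The groups did not overlap at that probe, and Hk1 rose there by 0.33 log2 (SE 0.093, limma adjusted p 0.0318). Of 8 refits without 1 animal, Hk1 failed the threshold in 6. Its second probe had the opposite sign, −0.15 log2 (limma adjusted p 0.305), and the mean of both probes changed by 0.09 log2 and was not called. Hk3, a hexokinase of blood cells, changed by −0.06 log2 and was not called.

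Phosphoglucomutase links glycogen to glycolysis by turning glucose 1-phosphate into glucose 6-phosphate. The probe named PGM2 on the platform read 116110.2, 143245, 125022 and 111289 in controls and 76991, 71888, 105004 and 83362 in Hira CKO. All Hira CKO animals lay below all controls, with Hira CKO animal 3 the nearest to them. The fall was −0.57 log2 (SE 0.125, limma adjusted p 0.0112) and was called in all 8 refits without 1 animal. It was −0.40 log2 and not called with array repeat 1 of each animal alone. The names Pgm1 and Pgm2 have been exchanged between the pair of mouse genes, each of which has the other name as an earlier symbol in RefSeq, so which gene this probe measures is not settled. Fbp1 and Fbp2 share this doubt. The probe named PGM1 changed by −0.13 log2 and was not called. Gpi1, which makes fructose 6-phosphate, changed by −0.14 log2 at its brighter probe, where the groups did not overlap, and by −0.08 at its second, and neither probe was called.

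Phosphofructokinase commits sugar to glycolysis, and Pfkm is its muscle subunit. Pfkm read 223485, 224758, 206413 and 223038 in controls and 175031, 170811, 189757 and 170472 in Hira CKO. The lowest control, animal 3, lay above the highest Hira CKO animal, also an animal 3. Pfkm fell by 0.31 log2 (SE 0.070, limma adjusted p 0.0119), with means of 219423 ± 8704 in controls and 176518 ± 9067 in Hira CKO (n = 4, SD), and was called in each of 17 alternative fits. The liver and platelet subunits, Pfkl and Pfkp, were dim. Pfkl read 81.5 ± 4.2 and 84.7 ± 4.7, and Pfkp 71.6 ± 4.5 and 81.5 ± 1.7, in controls and Hira CKO (SD, n = 4). Neither was called, although the Pfkp groups did not overlap.

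The Pfkfb enzymes make and break fructose 2,6-bisphosphate, the main activator of phosphofructokinase. Pfkfb3, the form with the highest kinase activity, had the most negative change of any member and was not called. It read 18930.5, 6093, 25779.8 and 16574 in controls and 9082, 9464, 6015 and 7060.1 in Hira CKO. Control animal 2 lay just above the lowest Hira CKO animal, and the other three controls lay above all Hira CKO animals. The change was −0.94 log2 (SE 0.373, limma adjusted p 0.103), with a 95% interval of −1.77 to −0.11, and without control animal 2 it was −1.37 log2 and called. Pfkfb1, the liver and muscle form, ranged from 9626 to 12709.8 in controls and from 6912 to 14356 in Hira CKO. Of the 3 probes of Pfkfb2, a form of heart and other tissues, none was called, and their changes were −0.10 (brightest), −0.22 and 0.09 log2. Pfkfb4 changed by −0.04 log2, and the fructose bisphosphatases Fbp1 and Fbp2, which run the reverse step, by −0.05 and 0.07 log2. None of these 3 genes was called.

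Of the 7 enzymes of lower glycolysis only Pkm was called, and Aldoa, Tpi1, Pgam2 and Pkm were among the brightest 1% of probes. Pkm, whose enzyme makes pyruvate, read 256207, 282816, 243352 and 261635 in controls and 202462, 207655, 227680.4 and 222703 in Hira CKO. Groups did not overlap, and Pkm fell by 0.27 log2 (SE 0.076, limma adjusted p 0.0302). Pkm failed the threshold in 4 of 8 refits (without control animal 2 or 4, or Hira CKO animal 1 or 2) and with the animal number as a block. The probe does not tell the splice forms of Pkm apart in the annotation used here. Aldoa, the muscle aldolase, read 185187, 190625, 211101 and 203426 in controls and 165749.8, 194255, 191210.5 and 192742 in Hira CKO. Its groups overlapped, and its change was −0.09 log2 (SE 0.083, limma adjusted p 0.475). Pgam2, the muscle phosphoglycerate mutase, read 351144, 365952, 365952 and 380645 in controls and 322832, 320092, 320092 and 339248 in Hira CKO. The Pgam2 groups did not overlap, yet the change, −0.17 log2 (SE 0.064, limma adjusted p 0.0902), did not pass. On 1 array Pgam2 reached 439069.7, the highest value of the table. All 24 arrays share this maximum, so the normalisation sets the values of the few brightest probes by their rank. Other bright members share single values too. The lowest Hira CKO array of Pfkm and the lowest control array of Aldoa both read 155536.9, and the lowest control arrays of Pkm and Tpi1 both read 218844.4. The limit thus also covers Pfkm, Pkm, Aldoa and Tpi1, including the called falls of Pfkm and Pkm. Tpi1 changed by 0.03 log2, Pgam1 by −0.05, Bpgm, which makes the 2,3-bisphosphoglycerate of red cells, by 0.13 and Aldoc, the brain aldolase, by −0.07, all with overlapping groups.

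The members at the top of the intensity range leaned one way. Among the brightest 1% of probes (265) the members had 10, of which 9 were on the negative side and 3 were called lower, with a median of −0.16 log2. The other 255 probes of that range had 30 called higher and 30 called lower and a median of 0.01 log2. This cut was chosen after the values were seen, and the count of members has no test. Falls at this brightness were not particular to the members. Of equally bright genes in the lists below, Acta1 (−0.55 log2), Neb (−0.38), Ckm (−0.28), Ttn (−0.22) and Slc25a11 (−0.74) were called lower. Sucla2 (0.54), Ogdh (0.40) and Casq1 (0.25) were called higher, and Des (0.14) and Mb (0.02) were not called.

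**Figure D2:**
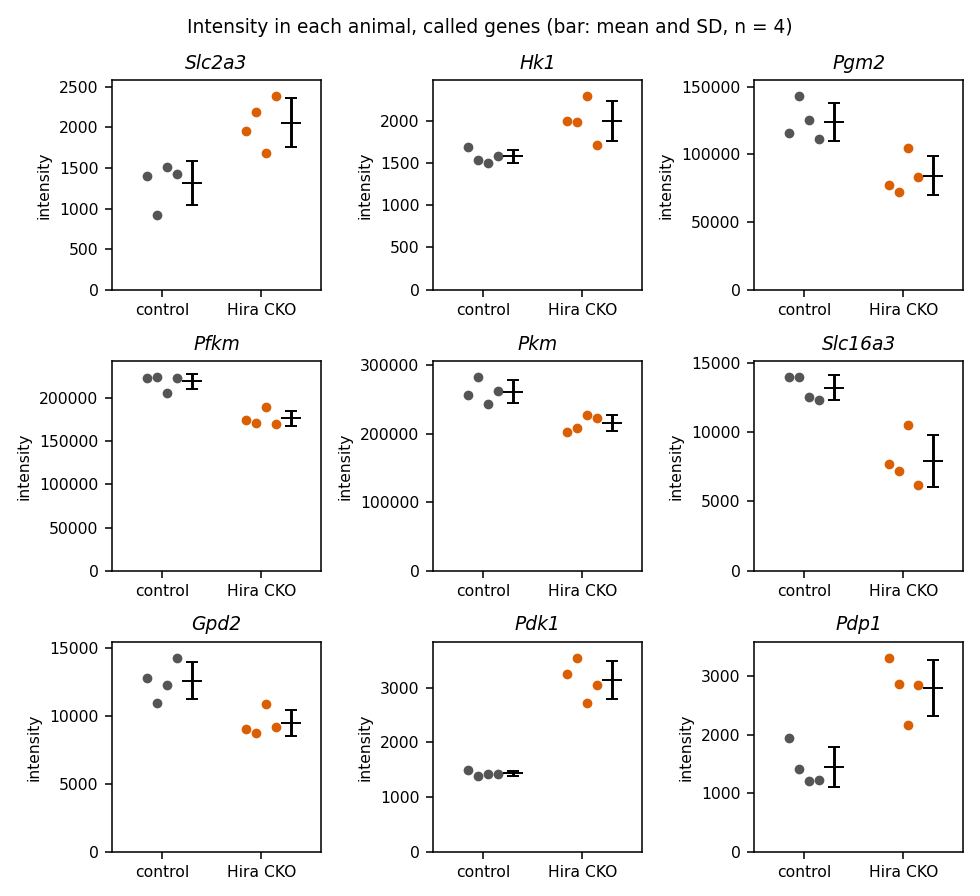
Intensity in each animal for the 9 called members, with control animals 1 to 4 in grey and Hira CKO animals 1 to 4 in orange, from left to right within a group, and the mean with its SD beside them (n = 4). Each y axis is linear and starts at 0. In 8 of the 9 panels, all but Hk1, Hira CKO animal 3 is the Hira CKO animal nearest to the controls.

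Lactate export and the glycerol phosphate shuttle each had 1 called fall. Slc16a3, which carries lactate and a proton out of glycolytic cells, read 13936, 13986, 12558 and 12271 in controls and 7663, 7202, 10537 and 6143 in Hira CKO. No animals overlapped, and Hira CKO animal 3 was again the nearest to the controls. The fall was −0.78 log2 (SE 0.144, limma adjusted p 0.00492) and was called in each of 17 alternative fits, reaching −0.92 log2 without Hira CKO animal 3. Slc16a1, the form that takes lactate up in oxidative cells, was dim at 134 ± 12.8 in controls and 132 ± 4.9 in Hira CKO (n = 4, SD) and changed by −0.02 log2. The shuttle moves electrons of cytosolic NADH to the respiratory chain through cytosolic Gpd1 and mitochondrial Gpd2. Gpd2 read 12814, 11003, 12319 and 14316 in controls and 9013, 8762, 10892 and 9204 in Hira CKO. Its groups were separated only narrowly, by Hira CKO animal 3, and it fell by 0.42 log2 (SE 0.101, limma adjusted p 0.0165). Gpd2 did not pass without Hira CKO animal 2. Gpd1 was read at 54385 ± 5978 in controls and 52009.7 ± 3295 in Hira CKO (n = 4, SD), and its change, −0.06 log2, was not called.

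Pyruvate enters the mitochondrion through a carrier of Mpc1 and Mpc2 and is oxidised by the subunits Pdha1 and Pdhb (E1), Dlat (E2), Dld (E3) and Pdhx, which ties E3 to the core. No gene of this step was called by limma, while 1 was higher and 2 were lower at an unadjusted p under 0.05. Mpc2 lay just outside the threshold. It read 1592, 1396, 1780.5 and 1436 in controls and 2049, 1931, 1902 and 1731 in Hira CKO, with control animal 3 among the Hira CKO values, and changed by 0.30 log2 (SE 0.094, limma adjusted p 0.0503). Pdha1, the catalytic subunit that the kinases phosphorylate, read 116039.6, 98648, 93796 and 96783 in controls and 89422, 82960.5, 97437 and 81035 in Hira CKO. Its groups overlapped, and the change was −0.21 log2 (SE 0.092, limma adjusted p 0.138). Dlat had non-overlapping groups and changed by −0.20 log2 (SE 0.075, limma adjusted p 0.0878), while Pdhx changed by −0.23 log2. Pdhb and Dld changed by 0.28 and 0.30 log2. The Pdhb value rested on Hira CKO animal 3, which read 31797 against 15621 to 19325 in the other Hira CKO animals, and without it the change was 0.07 log2.

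Of the 4 kinases and 2 phosphatases that set the activity of pyruvate dehydrogenase, 1 of each rose. The platform symbol PDK1 is also an earlier symbol of Pdpk1, a kinase of insulin signalling, which has 3 probes under its own name, and this probe was taken as Pdk1 by its current symbol. Pdk1 read 1497, 1390.4, 1422 and 1412 in controls and 3254, 3546, 2716 and 3044 in Hira CKO. The lowest of the 12 Hira CKO arrays (2549.8) lay above the highest of the 12 control arrays (1572). Pdk1 rose by 1.12 log2 (SE 0.088, limma adjusted p 4.49e-05), with a 95% interval of 0.92 to 1.31, and was called in each of 17 alternative fits. Pdp1, the calcium-stimulated phosphatase of muscle, read 1940.4, 1413, 1198 and 1228 in controls and 3314, 2858, 2166 and 2843 in Hira CKO. All Hira CKO animals lay above all controls, and Pdp1 rose by 0.95 log2 (SE 0.164, limma adjusted p 0.00333), also called in each of 17 fits. The kinase that is induced by fasting, Pdk4, read 58277, 14015, 44229.7 and 72209 in controls and 39964, 25248, 47463 and 20044 in Hira CKO. Control animals alone spanned 5.15-fold, from animal 2 to animal 4, and the change, −0.37 log2 (SE 0.468, limma adjusted p 0.612), had a 95% interval of −1.41 to 0.67. Pdk2, the kinase present in most tissues, changed by −0.21 log2, the dim Pdk3 by 0.10 and the phosphatase Pdp2 by −0.05, and their groups overlapped.

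Animals of a group differed most in Pdk4 and Pfkfb3. The SD between animals of a group, pooled over both groups, was 0.85 log2 for Pdk4 and 0.67 log2 for Pfkfb3, above the 99th percentile of all genes (0.59). Pfkfb1 followed at 0.35 log2. The median was 0.14 log2 over members and over all genes. At the other end Pfkm had 0.07 log2 and Pgam2 0.04. Pfkm and Pgam2 are among the brightest probes, whose values the normalisation sets by rank, so their small SDs do not measure the animals alone. Control animal 2 was the lowest control for both Pdk4 and Pfkfb3. Feeding state and the time of dissection were not given in the labels, and their part in this spread was not tested.

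**Figure D3:**
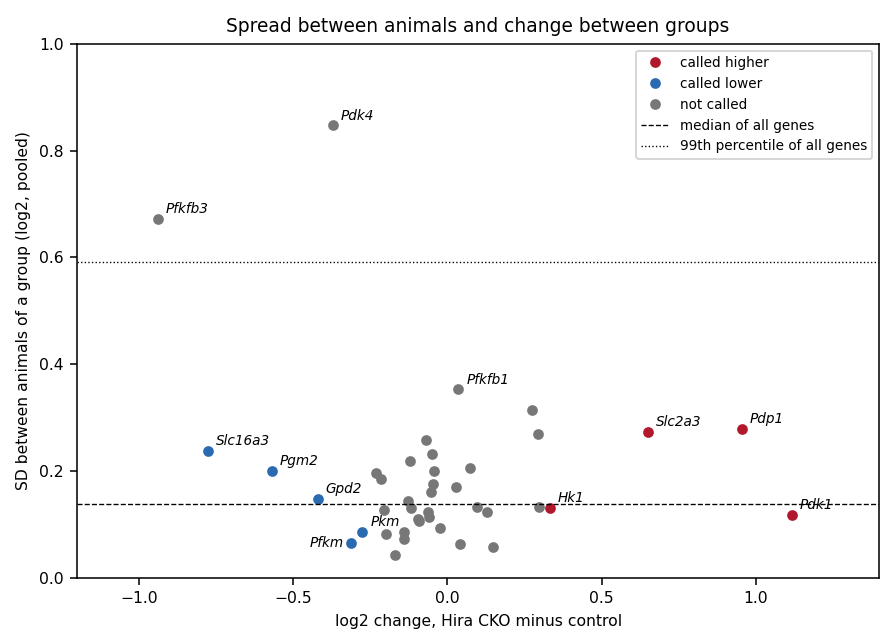
Spread and change of the 41 members. The x axis is the log2 change (Hira CKO minus control) and the y axis the SD between animals of a group in log2 units, pooled over both groups. The dashed and dotted lines are the median (0.14) and the 99th percentile (0.59) of all genes. Pdk4 and Pfkfb3 lie above the dotted line and are not called, while Pdk1 has the largest rise and an SD of 0.12.

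Isoforms of a step were compared by their change, through the log2 ratio of their probes in each animal. Fbp2 over Pfkm and Gpd2 over Gpd1, which are different enzymes and not isoforms, were counted among the pairs. Of 16 pairs with both probes on the array, 5 had ratios that did not overlap between the groups, each at 0.0286, the smallest two-sided p that an exact permutation test with 70 possible groupings can give. After Benjamini-Hochberg adjustment over the 16 pairs 0 passed 0.05 (5 before adjustment), and 10 pairs at the smallest p would have been needed. The change of Pfkp exceeded that of Pfkm by 0.46 log2 (SE 0.048, exact p 0.0286, adjusted p 0.0914) and the change of Pfkl exceeded it by 0.35 log2 (SE 0.051). Slc16a1 over Slc16a3 shifted by 0.75 log2 (SE 0.182, exact p 0.0286, adjusted p 0.0914). Pfkp, Pfkl and Slc16a1 were dim and changed little on their own (0.15, 0.04 and −0.02 log2, none called), so these shifts largely restate the falls of Pfkm and Slc16a3. For the phosphatases, Pdp1 over Pdp2 shifted by 1.00 log2 (SE 0.170), and for the hexokinases Hk1 over Hk2 shifted by 0.47 log2 (SE 0.079) at the brighter Hk1 probe. Slc2a3 over Slc2a4 shifted by 0.77 log2 (SE 0.261, exact p 0.0571, adjusted p 0.114). Pdk1 over Pdk4 had the largest difference, 1.49 log2 (SE 0.611, exact p 0.0857, adjusted p 0.125), with a wide error from the spread of Pdk4. For Pgam1 over Pgam2, Aldoc over Aldoa and Slc2a1 over Slc2a4 the differences were 0.12 (SE 0.141), 0.02 (SE 0.172) and −0.002 log2 (SE 0.109).

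**Figure D4:**
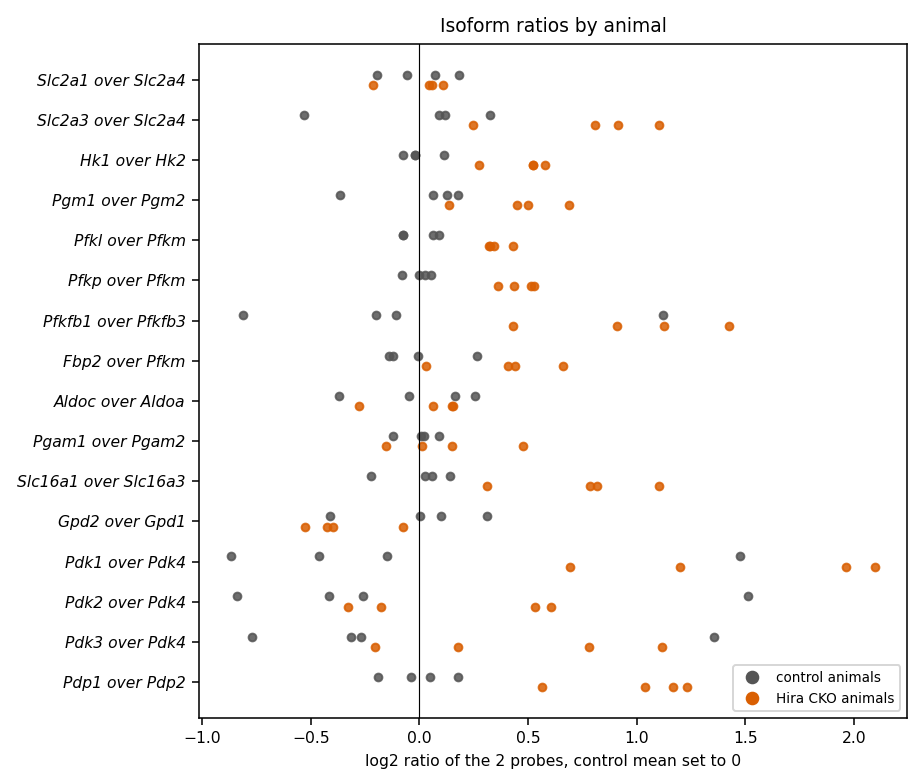
Log2 ratio of the 2 probes of each pair in each animal, with the control mean of the pair set to 0 (x axis, log2 units). The pairs are isoforms, except Fbp2 over Pfkm and Gpd2 over Gpd1, which are different enzymes. Grey points are control animals and orange points Hira CKO animals, 4 each. The groups do not overlap for Hk1 over Hk2, Pfkl over Pfkm, Pfkp over Pfkm, Slc16a1 over Slc16a3 and Pdp1 over Pdp2.

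Hira CKO animal 3 was the nearest of its group to the control mean for 8 of the 9 called members, and animal 4 for Hk1. Over all 3765 called genes animal 3 was the nearest for 27.6%, animal 4 for 28.7%, animal 2 for 26.7% and animal 1 for 16.9%. The 9 genes share these 8 animals and are not independent of each other. The same animal stood apart in slow fibre markers, as given with the markers, and the part of this in the members' values was not tested. Without animal 3 the rises of Pdk1 and Pdp1 were 1.18 and 1.07 log2.

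Markers of fibres and of other cells are given beside these results, since in whole muscle fewer cells of a type and less RNA per cell cannot be told apart. The counts of each list stand beside 21.2% of all genes called. Of 6 measured general muscle genes, 0 rose and 4 fell (by limma, and at an unadjusted p under 0.05), Acta1 (skeletal actin) by 0.55, Neb (nebulin) by 0.38, Ckm (muscle creatine kinase) by 0.28 and Ttn (titin) by 0.22 log2. The other genes, Des (desmin) and Mb (myoglobin), changed by 0.14 and 0.02 log2 and were not called. The mean log2 level of the list was 17.1 to 17.3 in control animals and 16.9 to 17.0 in Hira CKO animals. Ttn failed in all 8 refits, Ckm in 6 and Neb in 2. Of 7 fast fibre markers 1 rose (Casq1, 0.25 log2, which failed in 7 of 8 refits and had a second probe at −0.23, not called), and their level overlapped, at 17.5 to 17.6 in both groups. Of 6 slow fibre markers 2 rose and 1 fell. Casq2, the slow calsequestrin, rose by 1.03 log2 and Atp2a2, the slow calcium pump, by 1.27, while Tpm3 fell by 0.37 (failing in 6 of 8 refits). The Atp2a2 value is that of its brightest probe, and its other probes changed by 0.21 and 0.47 log2 and were not called. Hira CKO animal 3 stood apart in this list. The slow troponins Tnnt1, Tnni1 and Tnnc1, none of them called, read 5002, 4509 and 6587 in animal 3 against 2209 to 2342, 2036 to 2584 and 3631 to 4253 in the other Hira CKO animals. Atp2a2 read 5611 against 3007 to 3449. The mean log2 level of the slow list was 11.95 to 12.27 in controls. It was 12.35 to 12.41 in Hira CKO animals 1, 2 and 4 and 12.91 in animal 3. The groups thus did not overlap with or without that animal, but the called rises were those of Casq2 and Atp2a2 alone. In controls Tnnt1, Tnni1 and Tnnc1 read 1526 to 2718, 2282 to 3153 and 4509 to 5562.5. For each of these troponins Hira CKO animals 1, 2 and 4 lay within or below the control range. Myh4 and Myh7, the defining myosins of fast and slow fibres, were not analysed here for want of a named probe. Of 8 endothelial markers 1 rose, Eng by 0.55 log2, and 3 fell, Egfl7 by 0.69, Kdr (a receptor of vascular endothelial growth factor) by 0.60 and Pecam1 by 0.36 (failing in 6 of 8 refits). Their mean log2 level did not overlap between the groups, at 11.93 to 12.15 in controls and 11.75 to 11.89 in Hira CKO. For the white cells among which Slc2a3 and Hk3 are expressed, 9 macrophage markers had a mean log2 level of 8.92 to 9.34 in controls and 8.74 to 9.06 in Hira CKO. By limma 1 of them was called higher and 1 lower, and 1 was higher and 3 were lower at an unadjusted p under 0.05. Cx3cr1, a chemokine receptor, fell by 1.61 log2, with means of 217 ± 18.5 in controls and 60.5 ± 5.8 in Hira CKO (n = 4, SD), and Itgam, an integrin, rose by 0.40 and failed in 6 of 8 refits. The 6 neutrophil markers had no call and 0 at an unadjusted p under 0.05. Adipocyte (8), fibroblast (7), nerve and Schwann (6) and red blood cell (3) markers had no call by limma, with 0, 1, 0 and 1 at an unadjusted p under 0.05. What part these shifts have in the members' changes was not tested.

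Regulators of glucose uptake and of glycolytic genes were called in both directions, against 21.2% of all genes called. Of 17 measured genes of insulin and exercise control 3 rose and 4 fell. Akt1, a kinase of insulin signalling, rose by 0.78 log2, and the AMP-activated kinase subunits Prkaa1 and Prkaa2 rose by 0.26 and 0.34, failing in 3 and 1 of 8 refits. Vamp2, a vesicle protein that docks Slc2a4 vesicles, fell, with means of 3317 ± 54.8 in controls and 1679 ± 149 in Hira CKO (n = 4, SD) and a difference of −0.98 log2. Its membrane partner Stx4a fell by 0.41 log2. Txnip and Arrdc4, arrestin-like genes induced by glucose, fell by 0.55 and 0.59 log2, although a second Arrdc4 probe was called higher (0.66 log2) and Txnip failed in 5 of 8 refits. Of 19 transcription regulators of glycolytic genes 1 rose and 4 fell (1 was higher and 7 were lower at an unadjusted p under 0.05 in limma). The mean log2 level of this list was 12.019 to 12.09 in controls and 11.887 to 12.016 in Hira CKO, so the groups were separated only narrowly. Mlxipl and Mlxip, the glucose-sensing factors known to drive Txnip and Arrdc4, fell by 0.62 and 0.24 log2, the latter failing in all 8 refits. Mef2d fell by 0.43 log2, Egln2, an oxygen-sensing hydroxylase, by 0.34, and Egln3, another, rose by 0.44 and failed in 6 of 8 refits. The probes of Egln1, the third of these hydroxylases, differed, with −0.21 log2 at the brightest (not called) and −1.76 log2 at the second (limma adjusted p 2.08e-05). Hif1a, the oxygen-regulated factor itself, changed by 0.08 log2 and was not called at its brightest probe, while its other probes changed by −0.10 (not called) and 0.25 log2 (called higher).

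Downstream of pyruvate, 3 of 16 measured genes of the tricarboxylic acid cycle rose and 0 fell (3 were lower at an unadjusted p under 0.05 in limma). Here too the counts stand beside 21.2% of all genes called. Idh2, a mitochondrial isocitrate dehydrogenase, rose by 0.78 log2, with means of 14347 ± 3777 in controls and 24147 ± 3094 in Hira CKO (n = 4, SD). Sucla2 rose by 0.54 log2 and Ogdh by 0.40, with a second Ogdh probe also called higher (0.47). Cs, citrate synthase, changed by 0.01 log2. In the malate-aspartate shuttle, the other route for cytosolic NADH, 1 of 7 genes rose and 1 fell. Slc25a11, the oxoglutarate carrier, fell, with means of 113629 ± 11235 in controls and 68534 ± 8386 in Hira CKO (n = 4, SD) and a difference of −0.74 log2, and Mdh1 rose by 0.58 log2 and failed in 3 of 8 refits. No test compared these lists with the members.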

How the data were processed

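Tibialis anterior RNA of 8 animals was measured on 24 single-colour Cy5 arrays. The deposited table holds a linear intensity per probe and array. As the values show, the authors had normalised it (array medians of 431.5 to 433.5, 1 maximum on all 24 arrays) and 50 values lie at or below 0 (lowest −12.9), as background subtraction can give. The sources used here give no scanner, software or slide, and no batch of arrays could be tested. Detection calls were not used. Precision is limited by the number of animals.

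Values below 0 were set to 0, 16 was added, log2 was taken and the 3 arrays of an animal were averaged. limma 3.58.1 in R 4.3.3 (lmFit, eBayes) was fitted to all 26423 probes with Benjamini-Hochberg adjustment. Isoform ratios had an exact permutation test. The platform annotation named 20377 probes, of which 2126 symbols were updated and 38 kept through RefSeq (GRCm38.p6). A current symbol took precedence; those of Gpi1, Pgm1, Pgm2, Fbp1, Fbp2, Gpd1, Gpd2, Pdk1 and Dld are also earlier symbols of other genes. All members, and of other lists up to 4 genes with the largest called change, are named; further called regulators, Hif1a, Cs and second probes were named after their values were seen. The members and lists were chosen with earlier results of these data known. The fit was tested on simulated data. Alternatives were pseudocounts of 1 and 50, cyclic loess, leaving out the dimmest 30% of probes, other array and variance models, an animal block, each animal left out, other thresholds and probe averaging. Figures used matplotlib 3.10.9.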

Additional observations from a re-analysis of the deposited data

Results flagged for a closer look

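In 92 groups of 4 animals (45 member probes and Hira, 2 groups each), 8 had 1 animal set far apart, judged by the gap to its neighbour as a share of the group's range on the log2 scale, above the 95% critical value of Dixon. Chance flags about 1 in 20 groups. For Pfkfb4 this held in both groups, with control animal 1 at 9324 against 6585 to 6732 in the other three animals (ratio 0.938) and Hira CKO animal 3 at 8182 against 6654 to 6720.1 in the other three animals (ratio 0.939). Among called members, Slc2a3 had control animal 2 at 922 against 1398 to 1516 in the other three animals (ratio 0.832), Pfkm had control animal 3 at 206413 against 223038 to 224758 in the other three animals (ratio 0.86) and Gpd2 had Hira CKO animal 3 at 10892 against 8762 to 9204 in the other three animals (ratio 0.835). In Aldoa, Hira CKO animal 1 read 165749.8 against 191210.5 to 194255 in the other three animals (ratio 0.909). In Pgam2, Hira CKO animal 4 read 339248 against 320092 to 322832 in the other animals of its group (ratio 0.97). The normalisation sets the values of Pgam2, Pfkm and Aldoa by rank. The Hira probe of control animal 1 read 568 against 467 to 473 in the other three animals (ratio 0.938).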

How the results depend on the processing

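Pdk1, Pdp1, Pfkm and Slc16a3 kept their direction and their call in all 17 alternative fits, 8 of which left out an animal. With array repeat 1 of each animal alone, 2 members were called higher and 2 lower (the same over all probes), and the median change of the members was −0.021 log2. At an adjusted p under 0.01, 2 were called higher and 1 lower, and at 0.10 the probes called lower were 8. Leaving out an animal gave 2 to 5 members higher and 3 to 5 lower, 3 to 6 probes lower, and a median of −0.105 to −0.0414 log2. The counts fell to 2 and 3 without Hira CKO animal 2. The median change of the member genes was −0.0981 without control animal 1 and −0.105 without Hira CKO animal 4. With the animal number as a replicate block, 3 members were called higher and 4 lower, and Hk1 and Pkm lost their calls. Deviations of same-numbered animals correlated at 0.30, 0.09, −0.06 and 0.07 for numbers 1 to 4. The highest correlation with another number was 0.003, 0.11, 0.09 and 0.17. Only number 1 exceeded it, so the numbers were not taken to pair animals. Whether the animals numbered 1 share a condition was not tested. With array repeat 1 alone uncalled changes turned sign for Slc2a4 (0.0189 log2), Hk3 (0.0264), Pfkfb1 (−0.0884), Pfkfb4 (0.0304), Fbp1 (0.0465) and Gpd1 (0.0005), with array weights for Pdp2 (0.0119), and with a pseudocount of 50 for Slc2a1 over Slc2a4 (0.001). Leaving out an animal turned the sign of changes near 0 that were never called, with ranges of −0.0891 to 0.263 log2 for Pfkfb1, −0.116 to 0.0783 for Pfkfb4, −0.116 to 0.0371 for Fbp1, −0.0033 to 0.169 for Fbp2, −0.176 to 0.0489 for Aldoc, −0.0219 to 0.116 for Tpi1, −0.186 to 0.0507 for Pgam1, −0.0714 to 0.0267 for Slc16a1, −0.104 to 0.011 for Gpd1 and −0.13 to 0.0388 for Pdp2. It did so for the pairs Slc2a1 over Slc2a4 (−0.0665 to 0.0692), Aldoc over Aldoa (−0.102 to 0.122) and Pdk2 over Pdk4 (−0.122 to 0.662). The cause of these shifts was not tested. Isoform pairs were recomputed in 11 settings (pseudocounts of 1 and 50, the mean of all probes, and each animal left out). In each of them 0 passed, as with all animals, where 5 had an exact permutation p under 0.05 before adjustment. Since 10 pairs at the smallest p were needed for any to pass, this 0 was nearly fixed beforehand and does not measure stability. The dimmest members, among them Pfkl, Pfkp, Pdk3 and Slc16a1, are limited by signal over background.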

Other observations

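Genes of side branches were called in both directions, against 21.2% of all genes called. Of 16 measured further transporters and isozymes 2 rose and 2 fell. Slc2a5, the fructose transporter, fell, with means of 149 ± 9.5 in controls and 83.1 ± 9.5 in Hira CKO (n = 4, SD) and a difference of −0.74 log2. Slc2a8, an intracellular glucose transporter, fell by 0.29 log2 and failed in 5 of 8 refits without 1 animal. Ldhd, which oxidises D-lactate, rose by 0.43 log2. Pgk2, known as the testis form of phosphoglycerate kinase, rose, with means of 3265 ± 449 in controls and 4585 ± 179 in Hira CKO (n = 4, SD) and a difference of 0.50 log2, and no probe of Pgk1, its close relative, was named, so the source of this signal was not tested.

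Of 7 pentose phosphate genes Pgd rose by 0.40 log2 and Rpia, which makes ribose 5-phosphate, fell, with means of 6913 ± 404 in controls and 4091 ± 510.1 in Hira CKO (n = 4, SD) and a difference of −0.77 log2. In the hexosamine branch Ogt, the enzyme that attaches N-acetylglucosamine to proteins, rose by 0.59 log2, the only call among 6 genes. Gpd1l, a relative of Gpd1, fell by 0.96 log2, with means of 414 ± 40.7 in controls and 206 ± 39.7 in Hira CKO (n = 4, SD), the only call among 11 gluconeogenic and glycerol genes, where limma called 0 higher and 1 was higher at an unadjusted p under 0.05.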
